A study of Mus musculus with 12 samples.

Results

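Dlx1 and 8 other genes that identify GABAergic interneurons, Dlx2, Dlx5, Gad1, Gad2, Sst, Pvalb, Vip and Npy, were described across the whole brains of 12 mice. All 9 genes were found by symbol among the 19775 genes of the deposited table, and all 9 exceeded the mean of 10 normalized counts that a gene needed to be tested. Dlx1 was chosen because the study lists it as a differentially expressed gene (DEG) in HM mice, so it was chosen by its measured values in HM and WT mice, and its levels are a description with no test. The other genes were chosen as markers of the same cells.

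Male C57BL/6N mice at about postnatal day 120 were compared in 3 genotypes with 4 mice each: wild-type (WT), Slc6a20a heterozygous (Slc6a20a+/-, HT) and Slc6a20a homozygous mutant (Slc6a20a-/-, HM) mice. Slc6a20a encodes a transporter of proline and glycine. Mice are named by genotype and replicate number, as WT1 or HM4. Each library came from poly-A RNA of one whole brain, and in such bulk samples fewer cells of a type and less RNA per cell cannot be told apart.

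Interneurons release GABA, the main inhibitory transmitter of the brain, and balance the activity of excitatory neurons. Those of the forebrain come from embryonic progenitors that express the Dlx homeobox transcription factors, and Dlx1 stays on in part of the adult interneurons of the cortex and in GABAergic cells of the olfactory bulb. All of them use glutamate decarboxylase, encoded by Gad1 and Gad2, to make GABA, and the main cortical classes are told apart by parvalbumin (Pvalb), a calcium-binding protein, and by the neuropeptides somatostatin (Sst) and vasoactive intestinal peptide (Vip), while neuropeptide Y (Npy) marks cells of several classes.

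The 3 Dlx genes code for closely related homeodomains, the part of the protein that binds DNA, and their sequences are shown because reads of one Dlx gene could be taken for another. The windows below are the stretches of 180 coding bases that were most alike between the genes, read 5′ to 3′ from GENCODE M21 transcripts on GRCm38, with bases that differ from Dlx1 in capitals.
Dlx1: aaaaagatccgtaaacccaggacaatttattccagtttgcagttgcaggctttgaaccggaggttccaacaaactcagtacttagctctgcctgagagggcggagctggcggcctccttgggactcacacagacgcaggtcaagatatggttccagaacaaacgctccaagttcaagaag
Dlx2: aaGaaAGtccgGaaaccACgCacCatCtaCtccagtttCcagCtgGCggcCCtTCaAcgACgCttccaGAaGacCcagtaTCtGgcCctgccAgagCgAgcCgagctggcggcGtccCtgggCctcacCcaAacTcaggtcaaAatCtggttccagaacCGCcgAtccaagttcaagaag
Dlx5: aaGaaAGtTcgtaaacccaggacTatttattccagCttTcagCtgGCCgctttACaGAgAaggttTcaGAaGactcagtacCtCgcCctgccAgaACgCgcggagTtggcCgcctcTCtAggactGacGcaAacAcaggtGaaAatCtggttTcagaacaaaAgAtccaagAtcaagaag
The Dlx1 window spans bases 376 to 555 of the coding sequence, in exon 2 (chr2:71531019-71531156) and exon 3 (chr2:71532264-71532305) on the plus strand. In Dlx2 it spans coding bases 457 to 636, in exon 2 (chr2:71545384-71545521) and exon 3 (chr2:71544883-71544924) on the minus strand. In Dlx5 it spans coding bases 403 to 582, in exon 2 (chr6:6879526-6879663) and exon 3 (chr6:6878447-6878488) on the minus strand. Within the window, Dlx2 differed from Dlx1 at 46 bases (74.4% identity) and Dlx5 at 43 bases (76.1% identity). Over whole transcripts, the longest run of bases that Dlx1 shared exactly with Dlx2 was 15 bp and with Dlx5 14 bp, and Gad1 and Gad2 shared at most 17 bp, so a read could not match both members of a pair along its whole length.

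One other gene could share reads with Dlx1. Dlx1 (ENSMUSG00000041911) lies at chr2:71528113-71533981 on the plus strand, and exons of the antisense gene Dlx1as overlap its exons on the minus strand. The paper does not say whether the library kit marks strand, so reads of the overlapping bases may not be told apart. Dlx1as had 101 ± 12.7 (SD, n = 4) normalized counts in the WT group, 115 ± 9.3 in the HT group and 121 ± 5.3 in the HM group, far fewer than Dlx1. Dlx2 (ENSMUSG00000023391) lies beside Dlx1 at chr2:71543408-71546754 on the minus strand, and Dlx5 (ENSMUSG00000029755) lies at chr6:6877805-6882085, also on the minus strand.

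The labels and the tissue were checked first. Slc6a20a had 679 ± 70.1 (SD, n = 4) normalized counts in WT mice, and its mean in HT mice was 50.8% and in HM mice 9.5% of the WT mean (limma, BH-adjusted p = 9.38e-04 and 1.75e-08). Normalized counts summed to between 33284951 and 33748623 per mouse, which does not show the depth because the normalization equalizes it. Markers of neurons, glia and endothelium were present in every mouse, among them 79380 to 87847 normalized counts of Snap25, a synaptic protein of all neurons, and 3786 to 4616 of Slc32a1, the vesicular GABA transporter. Although the tissue is labelled whole brain, the cerebellar markers Pcp2 (5.5 to 26.4) and Cbln3 (12.1 to 24.5) were close to 0 in every mouse. The other analysed genes of the cerebellar list below were higher, from Car8 (235 to 311) and Cbln1 (552 to 696) up to Itpr1 (18746 to 21001). The part of cerebellum in the tissue was not tested. Some cells of the cerebellum also express Gad1, Gad2 and Pvalb.

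Levels between genes were compared per kb of annotated exon length in WT mice. Sst was highest at 7312 ± 622 (SD, n = 4) normalized counts per kb. Gad1 (2899 ± 91.3) and Npy (2808 ± 362) followed with values that overlapped, and then Gad2 (1531 ± 61.7) and Pvalb (1332 ± 147), which also overlapped. Below these, Vip had 595 ± 13.9, Dlx1 262 ± 7.4, Dlx5 147 ± 10.2 and Dlx2 82.5 ± 4.1 normalized counts per kb, each apart from its neighbours in all 4 WT mice. The Dlx factors were thus the least abundant of the 9 genes in the adult brain, and Dlx1 the most abundant of the 3.

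**Figure D1:**
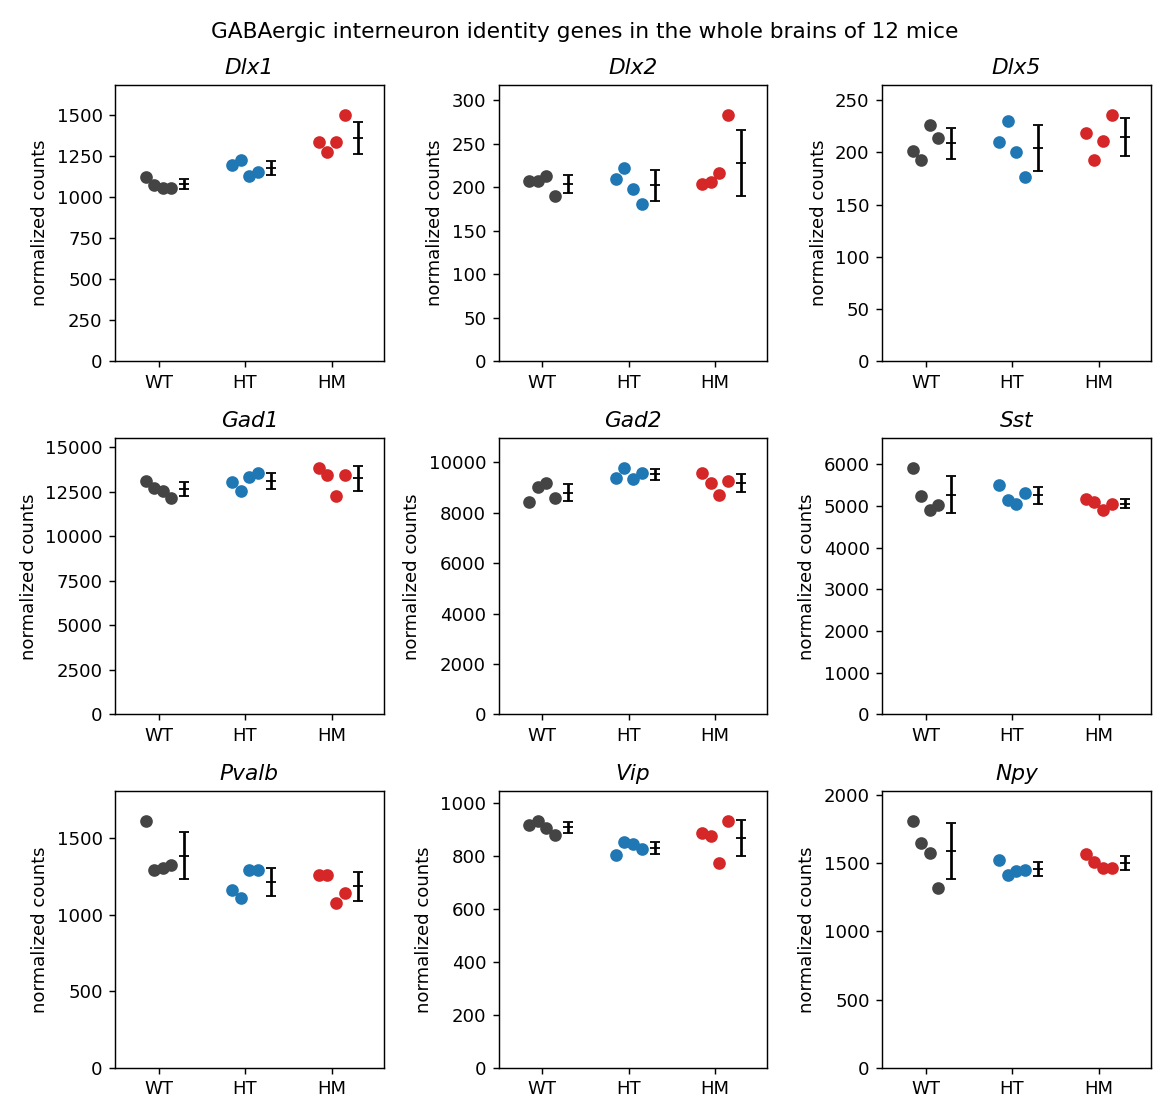
Normalized counts (vertical axes, from 0) of the 9 genes in each mouse by genotype (horizontal axes), with the mean ± SD of 4 mice as black bars beside the points. Dlx1 is the gene in which all HT mice lie above all WT mice and all HM mice above all HT mice, and in Pvalb all HT and all HM mice lie below the WT mice.

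Dlx1 was the member with the largest fold change in both comparisons with HM mice, while in HT against WT those of Pvalb (-0.19) and Vip (-0.13) were larger in size. Since Dlx1 was chosen for its values in HM and WT mice, nothing is read from its rank. When mice with the same first 3 digits of the animal number formed a block, Pvalb (-0.38) in HM against WT and Dlx2 (0.39) in HM against HT were larger in size than Dlx1 (0.37 and 0.31). These blocked values rest on few mice. HM against WT compared HM3 with WT1 and HM4 with WT2, and HM against HT compared HM4 alone with HT1 and HT2. For Dlx1, WT mice had 1121, 1074, 1057 and 1057 normalized counts in replicates 1 to 4. HT mice had 1193, 1223, 1129 and 1155 normalized counts. HM mice had 1334, 1276, 1332 and 1502 normalized counts. No value of one genotype overlapped those of another, with WT lowest, HT between and HM highest, and the widest spread was in HM mice, where HM4 stood above the other 3. The mean of HT mice (1175 ± 41.2, SD, n = 4) was 109% and that of HM mice (1361 ± 97.8) 126% of the WT mean (1077 ± 30.6). On the log2(normalized count + 1) scale HT mice exceeded WT by 0.13 (SE 0.05), HM mice exceeded WT by 0.33 (SE 0.06), and HM mice exceeded HT by 0.21 (SE 0.06). With each mouse left out in turn these log2 fold changes stayed between 0.11 and 0.14, between 0.29 and 0.36, and between 0.16 and 0.24.

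The order without overlap from WT through HT to HM was rare in the table. Of the 17764 genes that passed the minimum over all 12 mice, 3 (0.0169%) were ordered like Dlx1, namely Wasf3, Atp1b2 and Dlx1 itself, and 3 (0.0169%) were in the reverse order without overlap, namely C1qtnf12, Gm47173 and the targeted gene Slc6a20a. These genes were named after their values were seen, and since Dlx1 was chosen for HM against WT nothing is read from its place among them.

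The animal numbers in the column names of the table give a further split of the mice, as several share their first 3 digits, although the labels do not say what the digits mean. Among mice with shared digits, Dlx1 was 1121 in WT1 and 1332 in HM3. In another set it was 1074 in WT2, 1193 in HT1, 1223 in HT2 and 1502 in HM4. In a further set WT3 and WT4 had 1057 and 1057, and HT3 and HT4 had 1129 and 1155. These values are given as a description, since genotypes without overlap must keep their order in any subset. HM1 and HM2 shared digits with no mouse of another genotype.

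Dlx2, the neighbour of Dlx1 with which it acts in the same progenitors, had a WT mean of 204 ± 10.2 (SD, n = 4), an HT mean of 202 ± 17.8 and an HM mean of 227 ± 37.9 normalized counts. Its HM values were 203, 206, 216 and 283, so that 3 of the 4 lay in or near the WT range of 189 to 213 and HM4 alone was far above it. Against WT its log2 fold change was -0.01 (SE 0.10) in HT and 0.14 (SE 0.11) in HM mice, and HM mice differed from HT mice by 0.16 (SE 0.12). Without HM4 the differences involving HM mice were 0.03 and 0.05. Neither tested difference was past the threshold (limma, BH-adjusted p = 0.992 for HT against WT and 1.00 for HM against HT), and the 95% interval of HM against HT ran from -0.10 to 0.41.

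Dlx5 lies in a second Dlx gene pair and is also expressed in interneuron progenitors. Its mean was 209 ± 14.6 (SD, n = 4) normalized counts for WT, 204 ± 22.3 for HT and 215 ± 17.9 for HM mice. Values ran from 193 to 226 in WT, from 176 to 230 in HT and from 193 to 236 in HM mice, and the genotypes overlapped. The log2 fold changes were -0.04 (HT against WT), 0.04 (HM against WT) and 0.07 (HM against HT), each with an SE of 0.10. Of the 3 Dlx factors, Dlx1 was the one with values apart in each pair of genotypes. It was chosen for its values in HM and WT mice, so nothing is read from this contrast.

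Gad1 (ENSMUSG00000070880, chr2:70553072-70602014, plus strand) and Gad2 (ENSMUSG00000026787, chr2:22622205-22693874, plus strand) encode the enzymes that make GABA and so report on GABAergic neurons of every class. Gad1 averaged 12655 ± 399 (SD, n = 4) normalized counts for WT, 13120 ± 445 for HT and 13258 ± 691 for HM mice, with overlap in all pairs. Its log2 fold changes were 0.05, 0.07 and 0.01 in the same order, each with an SE of 0.04. For HM against HT the 95% interval ran from -0.07 to 0.10.

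Gad2 had 8403, 9026, 9155 and 8595 normalized counts in WT mice and 9390, 9779, 9325 and 9560 in HT mice. Every HT mouse lay above every WT mouse, and on the log2 scale the difference was 0.11 (SE 0.04), with an unadjusted p of 0.0121 and a BH-adjusted p of 0.768 by limma. HM mice had 9554, 9171, 8706 and 9241 normalized counts, which overlapped both other genotypes, and the log2 fold change was 0.06 (SE 0.04) against WT and -0.05 (SE 0.03) against HT. Unlike Dlx1, Gad2 thus had its highest mean in HT mice.

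The markers of the 3 main cortical classes had mean levels below WT in both mutant genotypes. Pvalb (ENSMUSG00000005716, chr15:78191114-78206400, minus strand) marks fast-spiking interneurons that inhibit the cell bodies and axons of their targets. It had 1615, 1296, 1306 and 1329 normalized counts in WT mice, 1164, 1110, 1292 and 1294 in HT mice and 1262, 1263, 1074 and 1143 in HM mice. All HT and all HM mice lay below all WT mice, but the gap was narrow, from 1294 in the highest HT mouse to 1296 in the lowest WT mouse, and WT1 stood far above the other WT mice. HT mice differed from WT by -0.19 on the log2 scale (SE 0.08; unadjusted p = 0.0295 and BH-adjusted p = 0.770 by limma), and HM mice by -0.22 (SE 0.08). Without WT1 these fold changes were -0.11 and -0.15, and with the animal number block they were -0.09 and -0.38.

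Vip (ENSMUSG00000019772, chr10:5639218-5647617, plus strand) marks interneurons that mostly inhibit other interneurons. WT mice had 917, 933, 907 and 882 normalized counts and HT mice 803, 852, 846 and 828. All HT mice were below all WT mice, by -0.13 on the log2 scale (SE 0.05; unadjusted p = 0.0272 and BH-adjusted p = 0.770 by limma). HM mice had 888, 878, 775 and 934 normalized counts and overlapped both other genotypes, and their log2 fold change against WT was -0.07 (SE 0.06). Without HM3 it was -0.02 and without HM4 -0.10.

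Sst (ENSMUSG00000004366, chr16:23889573-23890958, minus strand) marks interneurons that inhibit dendrites. It averaged 5272 ± 448 (SD, n = 4) normalized counts for WT, 5256 ± 199 for HT and 5054 ± 104 for HM mice. WT1 was the highest of the 12 mice at 5915 and the genotypes overlapped. Against WT the log2 fold changes were -0.0012 (SE 0.06) in HT and -0.06 (SE 0.05) in HM mice. Without WT1 they were 0.06 and -0.00079.

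Npy (ENSMUSG00000029819, chr6:49822710-49829507, plus strand), a peptide found in Sst cells and in neurogliaform cells, averaged 1589.5 ± 205 (SD, n = 4) normalized counts for WT, 1459 ± 48.6 for HT and 1502 ± 49.9 for HM mice. WT mice ranged from 1321 to 1812 and enclosed the values of both mutant genotypes. Against WT the log2 fold change was -0.11 (SE 0.08) in HT and -0.07 (SE 0.08) in HM mice. Npy depended on single WT mice, with -0.05 and -0.01 without WT1 and -0.20 and -0.16 without WT4. WT1 thus had the highest Sst, Pvalb and Npy of all 12 mice, and it was the highest of the 4 WT mice in Dlx1 and Gad1 too, but not in Dlx2, Dlx5, Gad2 or Vip.

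**Figure D2:**
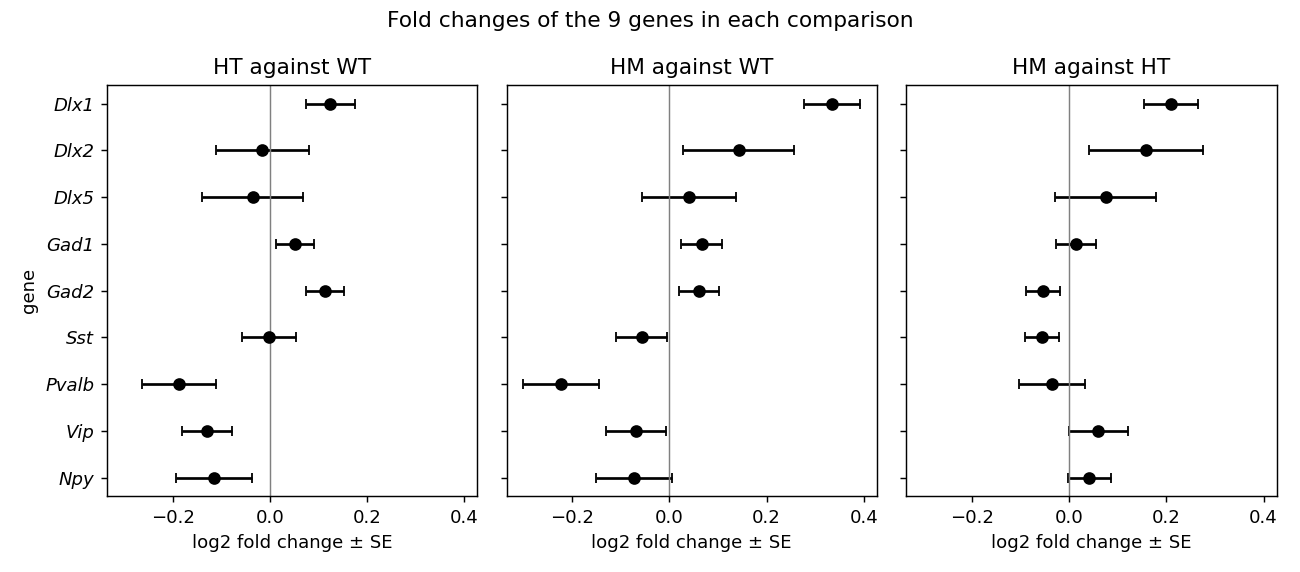
Log2 fold changes ± SE (horizontal axes, on the log2(normalized count + 1) scale) of the 9 genes (vertical axis) in each pair of genotypes, 4 mice each. Dlx1 lies at 0.13, 0.33 and 0.21 from left to right, Pvalb at -0.19 and -0.22 in both comparisons with WT, and all members but Dlx1 within 2 SE of 0 when HM mice are compared with HT mice.

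As a group the 9 genes did not move one way. In HT against WT, 0 of the other 8 members besides Dlx1 had an adjusted p under 0.05 (limma, BH), where 0.00555% of all 18004 genes tested did. At an unadjusted p under 0.05, 1 of the 8 was higher in HT mice (Gad2) and 2 were lower (Pvalb and Vip), where 6.42% of all genes were past this threshold in either direction. The same 3 genes did not overlap between HT and WT mice, 1 higher (1.82% of all genes) and 2 lower (1.91%). The median log2 fold change of the 9 genes was -0.01, and that of all genes tested was 5.09e-05. In HM against HT, 0 of the 8 were past the adjusted threshold (limma, BH; 0.00556% of 17986 genes) or the unadjusted one (3.74%), and 0 were free of overlap (1.24% higher, 1.14% lower). In HM against WT, the comparison that chose Dlx1, 6.99% of all genes had an unadjusted p under 0.05, and members are given no test. The values of 1 member lay wholly above WT (Dlx1; 2.41% of all genes) and those of 1 wholly below (Pvalb; 1.81%), and the median of the 9 genes was 0.04. HT and HM mice were compared with the same 4 WT mice, so a low or high WT mouse enters both comparisons.

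Genes of the same pathway and cell classes that are not among the 9 were taken from 5 lists with 56 genes, of which 55 were tested and Gsx2 was below the minimum. None had an adjusted p under 0.05 in any comparison (limma, BH; 0.00555%, 0.0111% and 0.00556% of all genes). At an unadjusted p under 0.05, 10 of 55 were higher and 0 lower in HT against WT (3.16% and 3.26% of all genes), 9 were higher and 0 lower in HM against WT (3.93% and 3.05%), and 4 were higher and 0 lower in HM against HT (2.11% and 1.62%). Their median log2 fold change was 0.06 in HT and 0.07 in HM mice against WT (all genes, 5.09e-05 and -0.00029), and 0.0027 between HM and HT mice (all genes, -0.00086). The HT median was 0.03 without HT1, and the HM median against WT 0.03 with the animal number block. The counts of genes past this threshold depended on single mice, being 4 without WT1, 5 without HT4 and 6 without WT2 in HT against WT, 4 without HM1, 5 without HM2 and 15 without HM3 in HM against WT, and 2 without HM4 in HM against HT.

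Of the 5 lists, that of the transcription factors of the interneuron lineage held the largest fold changes in both comparisons with HM mice, and in HT against WT the largest was that of Ndnf, a secreted factor in the list of the Vip and Lamp5 classes (0.44, SE 0.18; unadjusted p = 0.0305 and BH-adjusted p = 0.770 by limma), which was named after its values were seen. Sp8, a zinc-finger factor of interneurons from the caudal ganglionic eminence and of the olfactory bulb, averaged 95.8 ± 16.4 (SD, n = 4) normalized counts for WT, 80.9 ± 19.4 for HT and 144 ± 29.8 for HM mice. All 4 HM mice were above all HT mice in Sp8, and the log2 fold change was 0.57 (SE 0.17) against WT and 0.83 (SE 0.19) against HT (limma, BH-adjusted p = 0.643 and 0.506). Sp9, its relative, differed by 0.23 (SE 0.10) between HM and HT mice. Dlx6os1, an RNA made across the Dlx6 gene on the opposite strand, was higher in all HM mice (591 to 699) than in all WT mice (498 to 577), by 0.21 on the log2 scale (SE 0.07; BH-adjusted p = 0.664 by limma). Sox6, a factor needed for the maturation of Pvalb and Sst cells, averaged 659 ± 83.9 normalized counts for WT and 880 ± 182 for HT mice, a difference of 0.40 on the log2 scale (SE 0.13; BH-adjusted p = 0.768 by limma).

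Among genes that handle GABA, 2 of 8 in HT and 3 of 8 in HM mice had an unadjusted p under 0.05 against WT. Of all genes, 6.42% and 6.99% did, and each of the list genes past the threshold was higher in the mutants. Abat, which breaks GABA down, was higher in all HT mice than in all WT mice (log2 fold change 0.09, SE 0.04). Slc6a11, the GABA transporter of astrocytes, was higher in all HM mice (9758 to 10333) than in all WT mice (8709 to 9754), by 0.12 (SE 0.04) on the log2 scale. The Pvalb class list, which does not hold Pvalb itself, had 0 of 9 genes at this threshold in any comparison, and its median was 0.02 in HT and 0.04 in HM against WT, where Pvalb was -0.19 and -0.22. In the Sst class list, Nos1, which makes nitric oxide, exceeded WT by 0.23 (SE 0.09) in HM mice, Reln, a secreted glycoprotein, was higher in HM than in HT mice by 0.16 (SE 0.06), and Chodl differed by -0.40 (SE 0.22) between HM and HT mice.

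For the Vip and Lamp5 classes, 4 of 12 genes had an unadjusted p under 0.05 in HT against WT (all genes, 6.42%). In HM against WT 1 of 12 did (all genes, 6.99%). Vip itself was lower in all HT mice and overlapped WT in HM mice. The list genes past the threshold were all higher in the mutants. They included Cplx3, a complexin of Lamp5 cells (0.22, SE 0.07), Chat, which makes acetylcholine (0.36, SE 0.13), and Cnr1, the cannabinoid receptor (0.09, SE 0.04), in HT mice. Calb2 (calretinin), found in many Vip cells and in olfactory bulb interneurons, was higher by 0.17 (SE 0.06) in HM than in WT mice and by 0.18 (SE 0.05) than in HT mice. None of these passed the BH threshold.

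**Figure D3:**
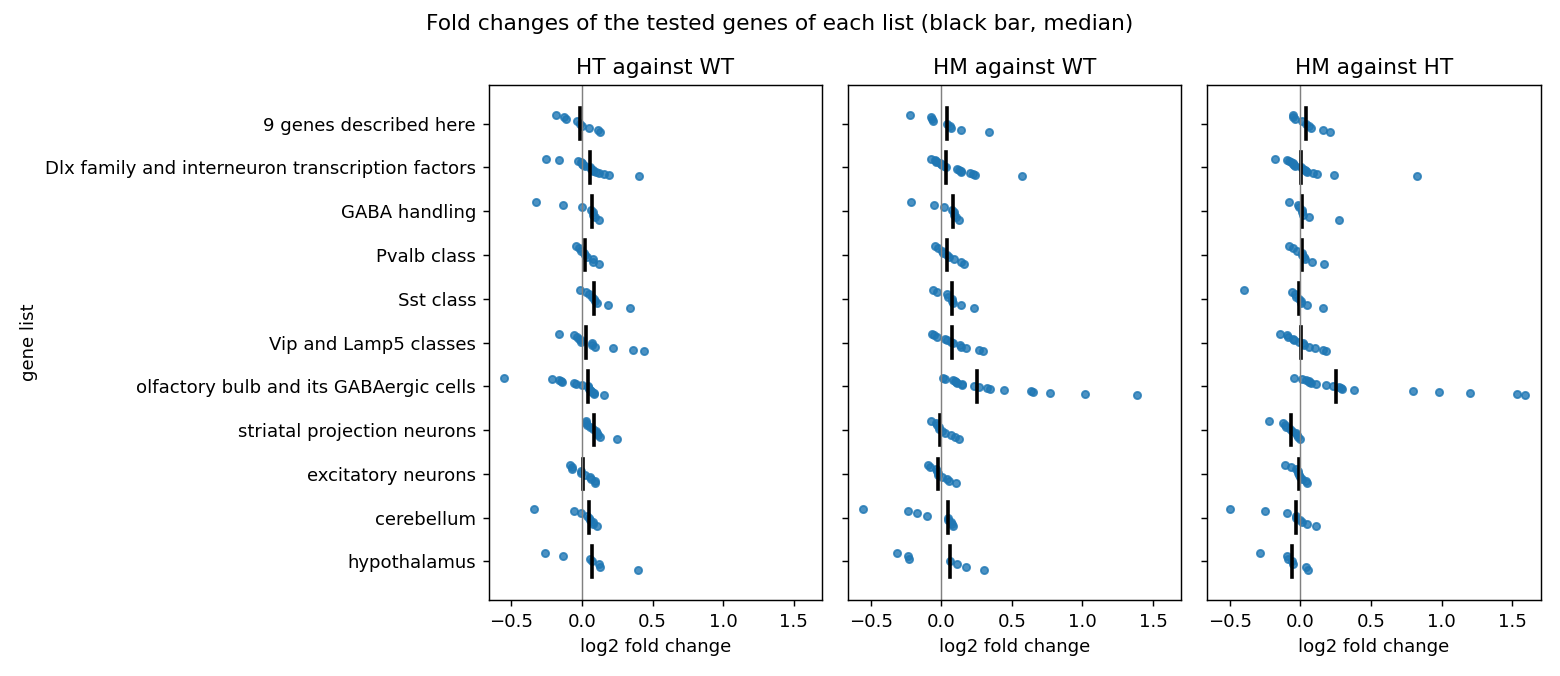
Log2 fold change (horizontal axes) of each tested gene (points) in the 9 genes described here, 5 lists of other GABAergic genes and 5 lists of other cells or regions (vertical axis), for each pair of genotypes, with the median of each list as a black bar. The medians of the GABAergic lists lie between -0.01 and 0.08, and the olfactory bulb list stands at 0.25 in HM against WT and in HM against HT.

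Genes of other cells and regions that share markers with interneurons were measured beside Dlx1. The first list held genes of the olfactory bulb and its GABAergic cells. At an unadjusted p under 0.05, 9 of its 18 genes exceeded WT in HM mice and 0 were lower (all genes, 3.93% and 3.05%). All 18 fold changes were above 0 (all genes, 8966 of 18004), with a median of 0.25. The study lists 5 of these genes as DEGs (Gng4, Tshz1, Eomes, Cdhr1 and Doc2g), so they are not independent evidence of direction. Nor are the remaining 13, as all lists were chosen with earlier results of these data known. Among these 13 the count was 4 higher and 0 lower, with a median of 0.14. With each mouse left out in turn, between 7 and 11 of the 18 were higher and 0 lower. Gng4, a G protein subunit, was higher by 0.34 (SE 0.06) and Tshz1, a zinc-finger factor of olfactory bulb granule cells, by 0.24 (SE 0.05) in HM mice relative to WT. Eomes, a factor of projection neurons of the olfactory bulb, was higher by 1.39 (SE 0.29; limma, BH-adjusted p = 0.522 for Gng4 and 0.553 for Tshz1 and Eomes). In HM against HT, 9 genes were higher and 0 lower (all genes, 2.11% and 1.62%), with a median of 0.25. Without the 5 genes that the study lists, 4 were higher and 0 lower, with a median of 0.11. Eomes (1.53, SE 0.26), Cdhr1 (0.80, SE 0.14) and Doc2g (0.98, SE 0.17) had a BH-adjusted p of 0.283 (limma). In HT against WT, 0 of the 17 tested genes were higher and 2 lower (all genes, 3.16% and 3.26%), among them Shisa3 (-0.55, SE 0.24). Their median was 0.04, and with each mouse left out it ran from -0.02 to 0.08. Without HT3 or HT4, 0 genes were past the threshold.

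Beside Dlx1, the mean of the 18 olfactory bulb genes in each mouse, as a log2 difference from the WT mean, was 0.20, 0.05, -0.12 and -0.14 in WT1 to WT4. It was 0.08, -0.19, -0.04 and -0.12 in HT1 to HT4, and 0.46, 0.12, 0.38 and 0.56 in HM1 to HM4. The summed level of the list ran from 16177 to 17277 normalized counts in WT, from 16809 to 17346 in HT and from 17670 to 20724 in HM mice. Without the 5 genes that the study lists, the sums ran from 12942 to 13665 in WT, from 13476 to 13903 in HT and from 13778 to 15851 in HM mice, so that HM overlapped HT mice, and the list mean of HM2 was 0.03, inside the WT range of -0.11 to 0.16. HM4 was highest and HM2 lowest of the HM mice in both the list mean and Dlx1, and HM2 lay below WT1 in the list mean but above it in Dlx1. All HT mice were above all WT mice in Dlx1, whereas their list means lay within or below the WT range. The part of olfactory bulb tissue in the values of Dlx1 was not tested.

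**Figure D4:**
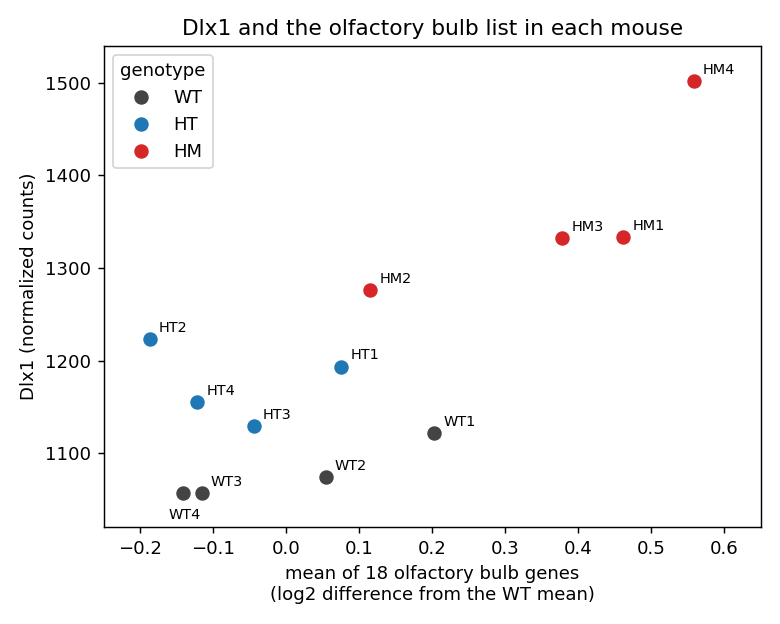
Dlx1 in normalized counts (vertical axis, not from 0) against the mean log2 difference of 18 olfactory bulb genes from their WT mean (horizontal axis), 1 point per mouse, coloured by genotype. HM mice lie highest in Dlx1 and HM4 is highest on both axes, while HT mice lie above WT mice in Dlx1 and not to their right.

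The other 4 lists of cells and regions were measured in the same way. Of all genes, 6.42% in HT and 6.99% in HM mice had an unadjusted p under 0.05 against WT. Of 10 genes of striatal projection neurons, which are GABAergic and come from Dlx-expressing progenitors, 1 was higher in HT than in WT mice (Foxp1, 0.13, SE 0.06) and 0 passed in HM against WT at an unadjusted p under 0.05, with medians of 0.09 and -0.01. All 10 fold changes were above 0 in HT against WT (all genes, 9004 of 18004). The list means were 0.051 to 0.138 in HT and -0.083 to 0.048 in WT mice. In HM against HT, 0 of 10 were above 0 (all genes, 8897 of 17986), with a median of -0.07. The 10 genes of excitatory neurons had 0 past this threshold in either mutant against WT and medians of 0.01 and -0.02. In the cerebellar list, 9 of 10 genes were analysed, of which 1 was higher and 1 lower in HT and 0 higher and 1 lower in HM mice against WT, and Gng13, a G protein subunit, was lower in all HT mice than in all WT mice (-0.34, SE 0.09; limma, BH-adjusted p = 0.740). The hypothalamic list had 0 of 7 tested genes past the threshold in HT and 1 of 7, which was lower, in HM mice against WT.

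The genes whose levels were most like those of Dlx1 were sought among the 13126 genes whose mean reached 100 normalized counts, by Pearson's r of log2 values over the 12 mice. The closest were Gng4 (r = 0.90), Ecd (0.90), Tshz1 (0.88), Pcbp3 (0.86) and Atp1b2 (0.86), and Slc6a20a had the lowest r of all (-0.91). Because the mice share 3 genotypes, such values mostly follow the genotype means, which chose Dlx1. After genotype means were taken out, the closest were Hsbp1 (r = 0.96), Synpr (0.91), Tyw5 (0.90), Clcn3 (0.90) and Slc25a16 (0.90), and Slc6a20a stood at -0.14. Synpr, a synaptic vesicle protein, is in the olfactory bulb list, and its r was 0.74 without HM4.

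Of the other members, Dlx2 was nearest to Dlx1 over the 12 mice, with an r of 0.68 and of 0.85 with genotype means taken out. HM4 was highest in both genes, and without it these were 0.31 and 0.56, below Gad1 (0.33) and Sst (0.57), so the place of Dlx2 rests on HM4. Dlx5 had an r with Dlx1 of 0.37 and 0.56, while Gad1 (0.03) and Gad2 (0.03) showed none once genotype means were taken out. Among the markers of mature classes, Sst and Npy had an r of 0.74 and Gad1 and Pvalb of 0.79 with genotype means taken out. These are descriptions over 12 mice, in which genes share the library and its normalization.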

How the data were processed

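Whole-brain RNA of 12 mice was sequenced. The authors quantified paired-end reads against GRCm38 with Salmon 1.1.0 and normalized gene sums with DESeq2 1.30.1, versions as in the submitters' processing notes. The deposited values are a normalized count signal for 19775 genes. At most 24.2% of values under 20 were whole reads (within 0.02 of a read), so depth is unknown and no count model was fitted. The 9 genes and all lists were chosen with earlier results of these data known. Named list genes were the 5 (other cells: 3) with the smallest unadjusted p per comparison.

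Genotypes were compared pairwise with limma 3.58.1 (R 4.3.3) on log2(normalized count + 1), which understates changes of low genes, with limma's trend option and a minimum mean of 10 over the 8 mice, two-sided, with Benjamini-Hochberg (BH) adjustment at 0.05. The fit was tested on simulated data. Alternatives were a pseudocount of 0.1, no filter, one fit of 12 mice, blocks for the replicate or animal number (the latter chosen after seeing the data), quantile normalization, a prior without trend, and leaving out each mouse. Symbols, positions and exon lengths came from GENCODE M21, where 19758 identifiers had a symbol. Python 3.11.15 and pandas 2.3.3 were also used. Labels do not say whether mice of a genotype shared litters.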

Additional observations from a re-analysis of the deposited data

Results flagged for a closer look

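Of 27 sets of 4 values (9 genes in 3 genotypes), 2 held a mouse that stood apart by Dixon's 95% criterion, which chance exceeds in about 1 in 20 sets. Dlx2 was 283 normalized counts in HM4, where the other HM mice had 203 to 216 (gap over range 0.837). Pvalb was 1615 normalized counts in WT1, where the other WT mice had 1296 to 1329 (gap over range 0.897). HM4 also had the highest Dlx1 and the highest olfactory bulb list mean of the 12 mice, and WT1 the highest Sst and Npy. What sets these mice apart was not tested.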

How the results depend on the processing

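The 27 fold changes of the 9 genes were each recomputed under 15 alternatives, 405 in all, of which 390 kept their direction, and for 19 of the 27 all did. Of the 16 tested differences of members, 0 had an adjusted p under 0.05 under any alternative (limma, BH), with the lowest at 0.639 (Gad2, HT against WT). Directions that turned were those of fold changes near 0. With the block for the animal number, Sst in HT against WT was 0.0467, and in HM against HT Pvalb was 0.0083 and Npy -0.0046. In HM against HT this block compared HM4 alone with HT1 and HT2, and in HM against WT it compared HM3 with WT1 and HM4 with WT2. The same block moved other fold changes by over 1.5 times. In HT against WT, Pvalb went from -0.19 to -0.09 and Npy from -0.11 to -0.06. In HM against WT, Pvalb went from -0.22 to -0.38, Npy from -0.07 to -0.24, Sst from -0.06 to -0.16, Vip from -0.07 to -0.12, Dlx2 from 0.14 to 0.26 and Dlx5 from 0.04 to 0.18. In HM against HT, Dlx2 went from 0.16 to 0.39 and Vip from 0.06 to 0.17. When each mouse was left out, HT against WT ranged from -0.0338 to 0.0554 for Sst, from -0.0612 to 0.0389 for Dlx2 and from -0.0941 to 0.0327 for Dlx5, and HM against HT from -0.078 to 0.0107 for Pvalb and from -0.0078 to 0.0512 for Gad1; the cause was not tested. Of members with no test, Dlx5 (-0.0072, lowest with a mouse left out) and Gad1 (-0.0097, lowest of the other alternatives) in HM against WT also crossed 0.

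Few genes of the table were past the adjusted threshold: 1 in HT against WT, 2 in HM against WT and 1 in HM against HT. Without a trend in the prior these were 0 (1014 genes at an unadjusted p under 0.05), 1 and 1, and without a filter HM against HT had 2. With the animal number block no count is given for HM against HT, which then rests on HM4 alone among HM mice. With each mouse left out the counts ranged from 1 to 5, from 2 to 3 and from 1 to 7, and the cause was not tested. With the replicate block, HM against WT had 1 gene. Same-numbered mice had an r from -0.07 to 0.09 in their deviations, where other pairs had -0.11 to 0.14. These few values cannot show whether the numbers pair the mice. Of the 55 tested genes of the 5 GABAergic lists, the number with an unadjusted p under 0.05 in HT against WT was 10, and 5 with the animal number block, 6 with quantile normalization and 5 without a trend. With 4 mice per genotype, differences as small as those of most members lie within the spread of the mice.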
